A study of Mus musculus with 4 samples.

Results

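Chemokines are small secreted proteins that guide the movement of blood cells, and their receptors are proteins of the cell surface that signal through inhibitory G proteins. The genes described here are 4 ligands (Ccl3, Ccl4, Ccl6 and Ccl9) and 6 receptors (Cxcr4, Ccr1, Ccr2, Ccr7, Ccr9 and Cx3cr1), which makes 10 genes of 18193 named on the array. They were taken by name: every probe set, the group of short probes that reads 1 transcript, counted as a member if the array's annotation gave it exactly 1 gene and that gene was among the 10. This gave 21 probe sets of 45037, 6 for the ligands and 15 for the receptors.

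There were 2 samples of hematopoietic stem cells (HSC) and 2 of multipotent progenitors (MPP), the more mature cells that stem cells give rise to. Both populations were sorted as KSL cells, a fraction of early blood cells that carry Kit and Sca-1 and lack the markers of mature lineages, from mice of the C57BL/6 background. The HSC lacked the surface protein CD34 and the MPP carried it, and the labels name no treatment, genotype or age for either group. Each array, an Affymetrix design, received RNA from the equivalent of 3000 cells after 2 cycles of amplification, and a level is an intensity in arbitrary units. The replicates are labelled biological without a statement that they came from separate animals, so the p-values reflect only how far these samples differ, which may be technical.

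In the bone marrow, CXCR4 on early blood cells binds the chemokine CXCL12, which stromal cells release, and this pair is known for holding stem cells in the marrow. CCL3, CCL4, CCL6 and CCL9 are inflammatory chemokines of the CC class, made mainly by myeloid cells, and CCL3 is also known as a factor that restrains the division of early blood cells. CCR1 is a receptor for CCL3 and for CCL9, CCR2 draws monocytes to sites of inflammation, CCR7 guides lymphocytes and dendritic cells to lymph nodes, CCR9 guides progenitors to the thymus, and CX3CR1 marks monocytes and macrophages.

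The array medians were 21.3 to 26.9 units, and between arrays Pearson's r was 0.949 within HSC, 0.966 within MPP and 0.903 to 0.916 across groups, over tested probe sets, which are not independent replicates. The floor of each array, taken as its brightest probe set for bacterial control transcripts, lay between 13.6 and 16.9 units. HSC replicate 2 stood apart in the ratio of its actin signals at the 3' and 5' ends, a sign of RNA quality, at 9.42 against 4.99 to 5.26 on the other arrays. All 8 tested markers of the sorted cells passed the test: Kit and the stem cell markers Slamf1, Procr, Gata2 and Meis1 were higher in HSC, and Cd34, Flt3 and Cd48 lower. The groups were sorted on CD34, so the difference in Cd34 is no separate check of the samples. The median difference of all tested probe sets, HSC minus MPP on the log2 scale, was 0.11 with the values as deposited, -0.01 after quantile normalization and -0.13 with equal array medians. Of all calls, 56.2% were higher in HSC as deposited and 30% with equal array medians.

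Of the 10 genes, 2 fell in HSC, Ccl3 and Ccl9, and none rose. A gene was called at an adjusted p under 0.05 in limma, with Benjamini-Hochberg adjustment over all 27022 probe sets tested, and was represented by its brightest tested probe set. Probe sets in the dimmest 40% were not tested, which left 8 member probe sets of 6 genes, and so 4 of the 10 genes (Ccl6, Ccr1, Ccr7 and Cx3cr1) have levels but no test. Among the tested genes of the whole array, 5.9% were called lower and 7.71% higher, against 2 and 0 of the 6 members. No tested member had a higher level in HSC at an unadjusted p under 0.05, and 3 had a lower one. The median difference was -0.49 over the 6 genes and 0.10 over all 12382 genes tested. The members were chosen with earlier results of these data known, so these contrasts with the whole array are descriptions and not tests.

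**Figure D1:**
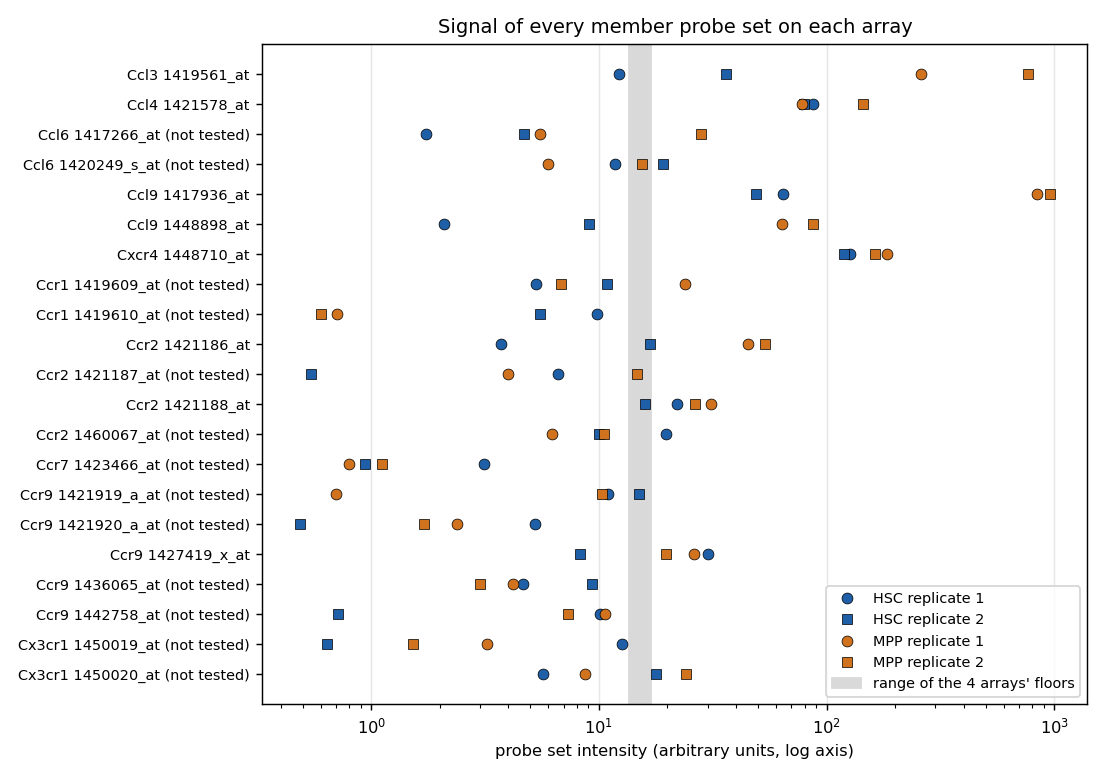
The intensity of each of the 21 member probe sets (rows, with the gene and the probe set name) on each of the 4 arrays, in arbitrary units on a log axis. Blue points are HSC and orange points MPP, circles are replicate 1 and squares replicate 2, and the grey band spans the floors of the arrays. On the brighter Ccl9 probe set the MPP points, 834 and 955, lie far to the right of the HSC points, 64.3 and 49.0, while most receptor probe sets lie near or under the band.

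Among the ligands, Ccl9 had the most even difference between the groups. Its brighter probe set read 64.3 and 49.0 units in HSC and 834 and 955 in MPP. Both HSC values lay far below both MPP values, and the arrays of each group were close to each other. The means were 56.6 ± 10.8 in HSC and 895 ± 85.5 in MPP (SD, n = 2 each). The log2 difference was -3.85 (SE 0.21, 95% interval -4.32 to -3.39, limma adjusted p = 4.20e-06). On this scale, log2(intensity + 6.01), Ccl9 was 14.5-fold lower in HSC, the lowest difference but 12 among the genes tested, at rank 13 of 12382. In bulk samples such as these, fewer cells that express a gene and less RNA in each cell cannot be told apart.

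A second Ccl9 probe set gave the same direction. It read 2.09 and 9.07 units in HSC, below the floor on both arrays, and 63.8 and 87.3 in MPP. Its log2 difference was -2.87 (SE 0.44, adjusted p = 0.00234), and since the HSC values give only an upper limit, Ccl9 was at least 4.45-fold lower there. The bound compares the MPP mean of log2 intensities with the mean of the HSC floors. This probe set passed the filter on dim signals only through its MPP values, and is a second reading of the same gene. Without MPP replicate 2 it fell under the filter and was not tested.

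Ccl3 fell in HSC too, with more spread. It read 12.3 and 36.2 units in HSC and 260.1 and 763 in MPP. The groups did not overlap, but the MPP arrays lay 2.93-fold apart and the HSC arrays 2.95-fold, and HSC replicate 1 was below its floor. The means were 24.2 ± 16.9 in HSC and 511 ± 355 in MPP (SD, n = 2 each). The log2 difference was -4.02 (SE 0.48, 95% interval -5.09 to -2.95, adjusted p = 5.16e-04). The size of the difference depended on single arrays: it was -3.26 without MPP replicate 2, -4.79 without MPP replicate 1, -3.42 without HSC replicate 1 and -4.63 without HSC replicate 2. It was -3.34 with a pseudocount as large as the overall median. Ccl3 was called in each of the 13 alternative settings, where its highest adjusted p was 0.0357, with a constant prior variance.

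Ccl4, the close relative of Ccl3 that lies beside it in the genome, showed no such difference. It read 87.4 and 79.1 units in HSC and 77.9 and 144 in MPP, above the floor on all 4 arrays. MPP replicate 1 lay just under both HSC arrays and MPP replicate 2 above them, so the groups overlapped. The log2 difference was -0.33 (SE 0.30, 95% interval -0.997 to 0.34, adjusted p = 0.550), and it was 0.088 without MPP replicate 2. The interval holds no difference near the size of those of Ccl3 and Ccl9, although the differences between the genes were not tested.

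Ccl6, the nearest neighbour of Ccl9 in the genome and a CC chemokine of the same small group, was near or under the floor. Its 2 probe sets read 1.75 and 11.7 units in HSC replicate 1, 4.68 and 19.1 in HSC replicate 2, 5.50 and 5.98 in MPP replicate 1, and 28.1 and 15.5 in MPP replicate 2. MPP replicate 2 was above its floor on both probe sets and HSC replicate 2 on 1 of them, and the probe sets put the groups in opposite order. Neither passed the filter. At this signal a difference in Ccl6 was not detectable.

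**Figure D2:**
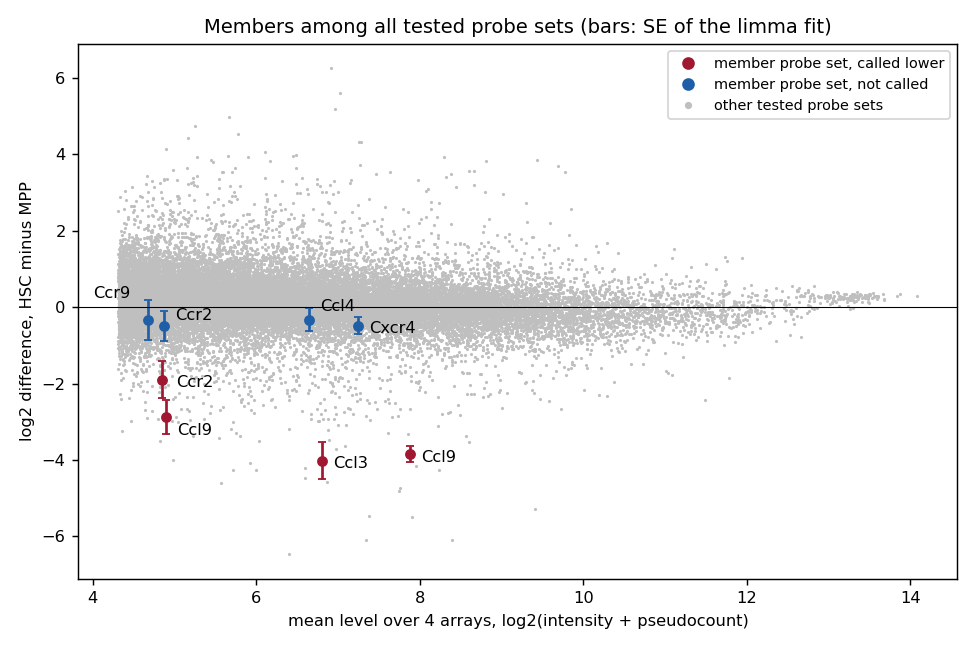
The log2 difference between the groups (HSC minus MPP) against the mean level over the 4 arrays for every tested probe set (grey), with the 8 tested member probe sets in colour and the SE of the limma fit as bars. The Ccl3 point at -4.02 and the brighter Ccl9 point at -3.85 lie at the lower edge of the cloud, and Ccl4 and Cxcr4 at -0.33 and -0.49 lie within it.

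The 4 ligand genes are direct neighbours in the mouse genome. In the protein-coding gene order of assembly GRCm38.p6 they follow each other as Ccl9, Ccl6, Ccl3 and Ccl4, after Ccl5, the gene of another CC chemokine. Ccl5 read 4.89 and 1.53 units in HSC and 3.31 and 5.53 in MPP, under the floor on every array, and was not tested. In this order the genes that fell, Ccl9 and Ccl3, alternate with Ccl6, which was near the floor, and Ccl4, which did not pass the test.

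Because Ccl9 and Ccl3 were both lower in HSC and Ccl6 lies between them, the 250 bases before the start of each of the 3 genes are shown. The sequences are RefSeq promoters of build GRCm38.p6, all on the minus strand and written 5′ to 3′ in the direction of the gene, at chr11:83578637-83578886 for Ccl9, chr11:83593088-83593337 for Ccl6 and chr11:83649379-83649628 for Ccl3. Capitals mark matches, on either strand, to motifs of factors active in blood cells: AGGAAG (the ETS core that PU.1 binds), TGTGGT (RUNX), TTGCNNAA (C/EBP), TGANTCA (AP-1) and GGG, any 2 bases and TTTCC (NF-kB).
Ccl9: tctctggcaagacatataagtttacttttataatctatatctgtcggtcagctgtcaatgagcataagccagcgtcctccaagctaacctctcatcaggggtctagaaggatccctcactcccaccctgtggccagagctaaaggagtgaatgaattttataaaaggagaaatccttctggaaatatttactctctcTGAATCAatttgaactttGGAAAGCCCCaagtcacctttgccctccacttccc
Ccl6: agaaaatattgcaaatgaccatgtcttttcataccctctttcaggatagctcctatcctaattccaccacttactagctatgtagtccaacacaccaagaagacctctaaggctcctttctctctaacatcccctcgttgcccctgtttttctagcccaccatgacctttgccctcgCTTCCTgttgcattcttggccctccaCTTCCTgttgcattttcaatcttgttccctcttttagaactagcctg
Ccl3: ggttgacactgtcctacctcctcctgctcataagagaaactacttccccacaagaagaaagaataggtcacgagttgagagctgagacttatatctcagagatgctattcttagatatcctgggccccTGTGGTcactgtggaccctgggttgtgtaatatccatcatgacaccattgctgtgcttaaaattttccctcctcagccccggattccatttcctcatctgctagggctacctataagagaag

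The windows of Ccl9 and Ccl3 shared none of the 5 motifs marked in capitals. The Ccl9 window held an AP-1 match that begins 53 bases before the gene's start and an NF-kB match that begins 35 bases before it, motifs found in 6.75% and 1.41% of 32851 promoter windows of the same length. In Ccl3 there was 1 RUNX match, 122 bases before the start, a motif found in 14% of windows. Ccl6 held 2 matches to the ETS core, at 73 and 47 bases before the start, and 29.5% of windows hold at least 1. The C/EBP motif, found in 9.56% of windows, was in none of the 3. The E-box CANNTG, left in lower case, occurred once in each of the 3 windows and in 66.2% of all windows. RefSeq promoters were matched for 8 of the 10 genes. A match is a description of these letters and not evidence of binding.

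Of the receptors, Cxcr4 was measured above the floor on all 4 arrays. It read 126 and 119 units in HSC and 185 and 164 in MPP. Both HSC arrays lay below both MPP arrays, as the arrays of the groups did not overlap for 54.6% of all tested probe sets and for 6 of the 8 of the members. The means were 123 ± 5.40 and 174 ± 14.8 (SD, n = 2 each). The log2 difference was -0.49 (SE 0.21, 95% interval -0.96 to -0.01). This did not pass the test (unadjusted p = 0.0462, adjusted p = 0.196), and none of the 13 alternative settings brought it past the threshold (adjusted p from 0.0572, with equal array medians, to 0.600).

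Ccr2 gave different answers on its 4 probe sets. The brightest, which represents the gene, read 22.0 and 15.9 units in HSC and 31.1 and 26.5 in MPP, a log2 difference of -0.49 (SE 0.40, adjusted p = 0.497). A second probe set, of nearly the same mean level, read 3.72 and 16.8 in HSC and 45.3 and 53.8 in MPP and was called lower (log2 difference -1.90, SE 0.48, adjusted p = 0.0296). Both had the HSC arrays below the MPP arrays, so they differ in size and not in direction. The other 2 were not tested, and their highest reading was 19.7 units, in HSC replicate 1. Their log2 differences had opposite signs, 0.51 on the probe set with that reading and -0.66 on the other. The groups overlapped on both, and 1 array each was above its floor.

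The call on that second Ccr2 probe set was fragile. It passed the filter only through its MPP values, and it was lost without MPP replicate 1 (-2.005, adjusted p = 0.0739), without MPP replicate 2 (-1.79, adjusted p = 0.148), with no filter on dim probe sets (adjusted p = 0.118) and with a constant prior variance (adjusted p = 0.0832). Its size was -1.28 without HSC replicate 1, -2.51 without HSC replicate 2 and -1.13 with a pseudocount as large as the overall median. Without HSC replicate 1, and with that pseudocount, it became the brightest tested probe set of Ccr2, and Ccr2 then brought the member genes that fell to 3. Over probe sets, 4 of the 8 tested were called lower, against 4.65% of all tested probe sets, but the 4 belong to 3 genes, and 2 of them passed the filter only through MPP.

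Ccr9 was tested on 1 of its 5 probe sets. That probe set, of a type that can also bind related transcripts, read 30.1 and 8.26 units in HSC and 26.2 and 19.6 in MPP. The HSC values lay on both sides of the MPP values, and the log2 difference was -0.34 (SE 0.51, 95% interval -1.48 to 0.80, adjusted p = 0.738), or 0.33 without HSC replicate 2. The other 4 probe sets were at or under the floor on every array.

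Ccr1, Ccr7 and Cx3cr1 were near or under the floor in both groups. Ccr7 read at most 3.12 units on any array. The 2 Ccr1 probe sets stayed below the floor except for 23.8 units on 1 of them in MPP replicate 1, and those of Cx3cr1 except for 17.8 and 24.2 units on 1 of them in HSC replicate 2 and MPP replicate 2. Without the filter, the brighter probe sets had log2 differences of -0.50 (Ccr1), 0.19 (Ccr7) and -0.34 (Cx3cr1), with adjusted p from 0.723 to 0.837. The dimmer probe sets of Ccr1 and Cx3cr1, under the floor on every array, had log2 differences of the opposite sign (1.02 and 0.41). Ccr7 was under the floor on every array and the other 2 genes on most, which does not show that they were absent. In all, 7 of the 21 member probe sets were at or below the floor on every array and 3 were above it on every array, those of Ccl4, Cxcr4 and the brighter one of Ccl9.

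**Figure D3:**
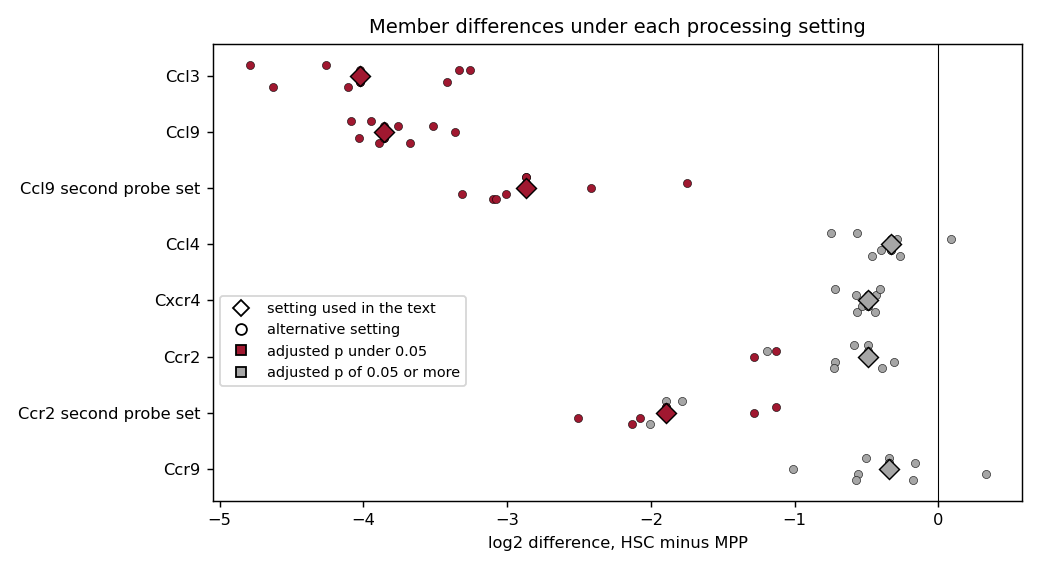
The log2 difference (HSC minus MPP) of the 6 tested genes, with a second probe set each for Ccl9 and Ccr2. Diamonds are the setting used in the text, and circles are the alternatives in which each was tested. Red marks an adjusted p under 0.05: both Ccl9 rows and Ccl3 are red throughout, Cxcr4, Ccl4 and Ccr9 are grey throughout, and Ccr2 is mixed.

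Single markers of other cell types were lower in HSC as Ccl3 and Ccl9 were, and other markers of the same lists were not called. Of 9 tested markers of monocytes and macrophages, which make these chemokines, 2 were lower in HSC, Csf1r and Ms4a6c, and 7 were not called. The median of the list was 0.32, and at an unadjusted p under 0.05 3 markers were higher in HSC (Cd14 at 1.18, Vcam1 at 1.00 and Fn1 at 0.90) and 3 lower. The summed level of the list was 445 to 480 units in HSC and 752 to 1133 in MPP. Csf1r, the receptor for the growth factor M-CSF, read 54.0 and 30.9 units in HSC and 282 and 552 in MPP. Of the macrophage genes for complement C1q, C1qa and C1qc were under the floor on every array, and C1qb was above it on all 4, at 34.6 and 41.7 units in HSC and 28.2 and 25.0 in MPP. Of 5 tested dendritic markers, 2 were lower (Flt3 and Irf8), with sums of 286 to 455 in HSC and 1683 to 2317 in MPP. Flt3, also counted above among the markers of the sorted cells, made up most of the MPP sum with 1171 and 1467 units, and Cd74 went the other way without a call (1.00, adjusted p = 0.0862). Of 2 tested T and NK markers, 1 was lower (Nkg7), with sums of 111 to 120 and 367 to 423 units, of which Nkg7 gave 376 and 312 in MPP. The other, Cd8a, was at 0.86 without a call (adjusted p = 0.192), while Cd3d and Cd3e were under the floor throughout.

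Maturing neutrophils left little signal in either group. None of the 2 neutrophil markers tested in limma was called, and at an unadjusted p under 0.05 none was higher or lower. The sum was 98.9 to 119 units in HSC and 96.6 to 112 in MPP. Camp and Lcn2 were under the floor on every array. Ngp was above it on all 4, at 24.7 and 19.6 units in HSC and 30.4 and 18.8 in MPP. S100a8, S100a9, Ltf, Mmp8, Cxcr2 and Chil3 were above it on some arrays only. B cell markers gave 204 to 277 and 207 to 221 units, with 0 of 4 called and 0 at an unadjusted p under 0.05. Mast cell and basophil markers, with Gata2 among them, summed to 1039 to 1416 units in HSC and 624 to 689 in MPP, with 1 of 4 higher and 1 lower. Gata2, also counted above among the markers of the sorted cells, gave 849 and 1188 units in HSC and 410 and 340 in MPP. It was the marker called higher. The marker called lower was Cpa3, at 84.5 and 90.1 units in HSC and 169 and 181 in MPP. The part of these cells in the levels of Ccl3 and Ccl9 was not tested.

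The genes with a pattern most like that of Ccl9, the called member with the smallest p, were Bpifc, Il1r1 and Satb1. Likeness was the distance between log2 values on the 4 arrays after each gene's mean was taken off, and it was 0.461, 0.526 and 0.539. Il1r1, the receptor for interleukin-1, read 20.6 and 8.14 units in HSC and 194 and 240.0 in MPP, and it and Bpifc passed the filter only through MPP. Satb1, which organises chromatin, read 116 and 109 in HSC and 1074 and 1367 in MPP. With 4 arrays such a likeness reflects little more than the size of the difference between the groups.

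The rest of the chemokine system was read from 6 lists of 87 genes, of which 53 were tested. In all, 5 rose in HSC (9.43% of those tested), 1 fell (1.89%) and 47 were not called, with a median log2 difference of 0.17. These shares stand beside 7.71% and 5.9% of all genes.

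Of the other ligands, 3 rose in HSC, opposite in direction to Ccl3 and Ccl9. Cx3cl1, the membrane-bound ligand of CX3CR1, read 56.6 and 77.9 units in HSC and 10.6 and 18.6 in MPP, a log2 difference of 1.84 (SE 0.37, adjusted p = 0.0107). Pf4, platelet factor 4, read 497 and 382 in HSC and 203 and 151 in MPP (1.28, SE 0.22, adjusted p = 0.00419). Ccl27a, known as a skin chemokine, read 223 and 146 against 77.9 and 71.9 (1.21, SE 0.26, adjusted p = 0.0138), on a probe set of a type that can bind related transcripts. The groups did not overlap on these 3 probe sets, as on 54.6% of all tested probe sets. For Cx3cl1, MPP replicate 1 was under its floor, and its 3 other probe sets were too dim to test and read above the floor in HSC replicate 2 alone, on 2 of them, at 37.8 and 16.9 units.

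Each of these calls had a setting that ended it. Cx3cl1 lost it with no filter on dim probe sets (adjusted p = 0.0602), Pf4 with a constant prior variance (adjusted p = 0.0714), and Ccl27a with it (adjusted p = 0.0858) and without MPP replicate 2 (1.16, adjusted p = 0.0580). The log2 difference of Cx3cl1 was 1.24 with a pseudocount as large as the overall median. Ccl27a was the 1 gene called of 4 tested CC ligands, and Pf4 and Cx3cl1 were the 2 called of 10 tested ligands of the other classes. The median differences were 0.55 and 0.97, and 0 of these ligands were lower in limma, also at an unadjusted p under 0.05. Ppbp, another platelet chemokine, was at 1.26 (adjusted p = 0.0584).

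Some megakaryocyte and endothelial markers were higher in HSC as Pf4 and Cx3cl1 were. Of 5 tested megakaryocyte markers, 2 of them Pf4 and Ppbp themselves, 3 were higher in HSC. The list summed to 1940.4 to 1949 units in HSC, of which Vwf gave 920 and 1183, and to 361 to 514 in MPP. Of 5 tested endothelial markers, 3 were higher (Kdr, Tie1 and Cldn5). Their list summed to 317 to 325 units in HSC and 136 to 157 in MPP, while Cdh5 was under the floor on every array. Pecam1, another endothelial marker, went the other way without a call, at 7.21 and 18.8 units in HSC and 31.4 and 29.9 in MPP (-1.02, adjusted p = 0.207). Erythroid markers were higher for 3 of 4, with sums of 1009 to 1669 and 78.9 to 97.1 units. Of the HSC sums Car1 alone gave 672 and 1215 units, while Alas2 and Slc4a1 were under the floor on every array. Stromal markers, with Cxcl12 among them, summed to 217 to 247 and 236 to 273 units, with 1 of 4 higher and 1 lower. Their part in these results was not tested.

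Cxcl12, the ligand of CXCR4, was near the floor in both groups. Its brightest probe set read 25.4 and 14.7 units in HSC and 13.1 and 12.1 in MPP (log2 difference 0.46, SE 0.47, adjusted p = 0.602). On this probe set HSC replicate 1 alone was above its floor, and the filter was passed only through HSC. Its 2 other probe sets were not tested, and 1 array each was above the floor, HSC replicate 2 at 21.9 units and MPP replicate 1 at 19.3. Of 5 proteases known to cleave CXCL12, 1 fell: Ctsg, cathepsin G of neutrophil granules, read 35.7 and 33.2 units in HSC and 941 and 1351 in MPP (-4.81, SE 0.23, adjusted p = 1.91e-06). The others, Elane among them at -1.28 (adjusted p = 0.108), were not called, and the median of the list was -0.52.

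The other chemokine receptors gave no call in limma. Nor did the list of atypical receptors, which take up chemokines without G protein signals, and of the chemerin-type receptors Ccrl2 and Cmklr1. Of 2 and 4 tested, 0 were called and 1 in each list was higher at an unadjusted p under 0.05. Ccr6, a receptor of lymphocytes, had the smallest p of the first, at 26.2 and 32.7 units in HSC and 14.0 and 3.78 in MPP (1.34, adjusted p = 0.129). Both MPP values were under the floor, and Ccr6 passed the filter only through HSC. Ackr4 had that of the second (0.90, adjusted p = 0.150). The medians were 0.55 and 0.72, over few genes.

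Of 28 tested signal transducers, which carry the signals of the receptors, 2 rose (7.14%, near the 7.71% of all genes) and none fell, 3 were higher and 3 lower at an unadjusted p under 0.05 in limma, and the median was 0.05. Gnai2, the main inhibitory G protein subunit of blood cells, on its brightest probe set read 1067 and 1343 units in HSC and 1133 and 1205 in MPP, and is named here after its values were seen. Gnai1, a related subunit, rose from 17.4 and 4.65 in MPP to 72.7 and 71.9 in HSC (2.31, SE 0.43, adjusted p = 0.00691), with MPP replicate 2 under its floor. It passed the filter on dim signals only through its HSC values. Its size was 2.88 without MPP replicate 1 and 1.74 without MPP replicate 2, or 1.48 with a pseudocount as large as the overall median, and another Gnai1 probe set, the one left when those that can bind related transcripts were dropped, was not called (1.17, adjusted p = 0.192).

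Plcb2, a phospholipase that acts below these receptors, rose from 88.4 and 64.9 units in MPP to 151 and 139 in HSC (0.88, SE 0.25, adjusted p = 0.0465). Its call held in 5 of 13 alternatives. It was lost when any array was left out: without HSC replicate 1 it was 0.83 (adjusted p = 0.0841), without HSC replicate 2 0.94 (0.0530), without MPP replicate 1 1.09 (0.0615) and without MPP replicate 2 0.68 (0.306). It was also lost after quantile normalization (0.76, adjusted p = 0.0925), with equal array medians (0.65, adjusted p = 0.123), with no filter (adjusted p = 0.0939) and with a constant prior variance (adjusted p = 0.127).

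**Figure D4:**
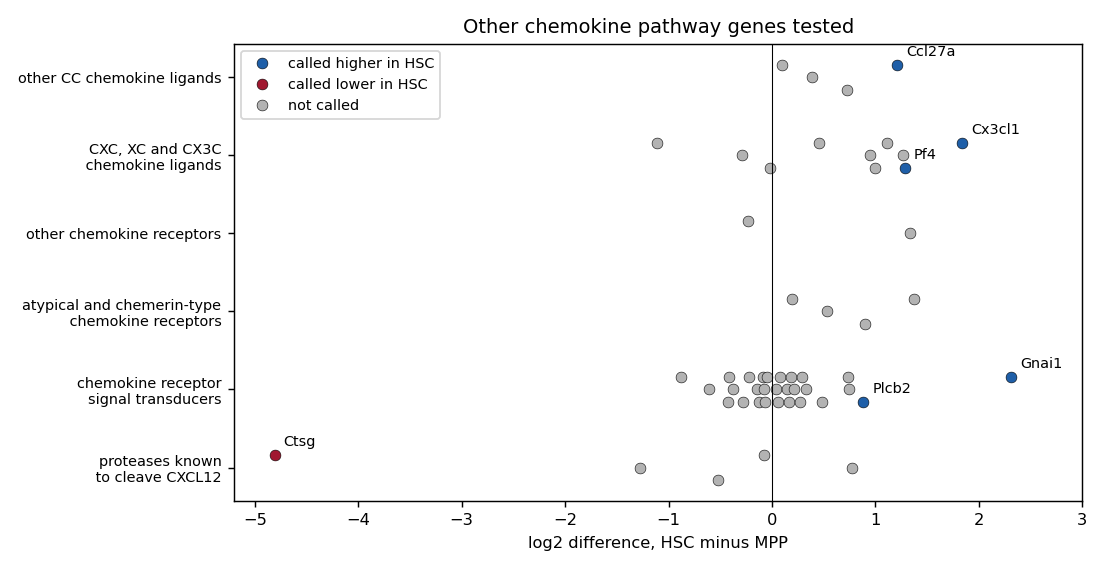
The log2 difference (HSC minus MPP) of the 53 tested genes in 6 lists of the chemokine system, 1 point per gene, with called genes named. The signal transducers gather around their median of 0.05, 3 ligands lie to the right as called higher, and Ctsg lies alone on the left at -4.81.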

How the data were processed

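The values were the probe set intensities deposited by the authors, linear and in arbitrary units. The deposited values had a mean of 100.001 on every array without the lowest and highest 2%. No source used here names the software behind them. Control probe sets (64) were left out. Symbols came from the platform annotation, updated by gene identifier through a RefSeq table of GRCm38.p6 (34741 of 34945 probe sets with 1 symbol matched, 932 had several and 9160 none).

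Values were analysed as log2(intensity + 6.01), a pseudocount of 0.25 of the overall median. The lowest 40% of mean level was left out, and the groups were compared (HSC minus MPP) by limma 3.58.1, run in R 4.3.3, with a trend in the prior variance, 2-sided, without covariates (2 residual and 8.48 prior degrees of freedom). An exact permutation test of 2 against 2 cannot go below p = 0.333. Only 4 arrays limit the precision. The script was tested on simulated data. The members, lists, motifs and rules were chosen with earlier results of these data known. Named were all members, the called genes of each list (or that with the smallest p), and the 3 genes most like the called member with the smallest p. Alternatives changed the pseudocount, filter, scaling, prior, probe set choice and replicate block, and left out each array.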

Additional observations from a re-analysis of the deposited data

How the results depend on the processing

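In all 13 alternatives Ccl3 and Ccl9 kept their direction and their call (log2 differences of -4.79 to -3.26 and -4.09 to -3.36), and the members called lower numbered 2 or 3 and those called higher 0. Differences without a call changed sign for Ccl4 without MPP replicate 2 (0.088, range without single arrays -0.75 to 0.088) and for Ccr9 without HSC replicate 2 (0.33, range -1.01 to 0.33). Over the array, 1611 probe sets were higher and 1257 lower: these counts became 917 and 780 when every probe set was tested, 1020 and 2379 with equal array medians, and 633 and 374 with a constant prior variance. Leaving out 1 array gave 1060 to 1931 higher and 561 to 1897 lower. Of the genes in the chemokine lists, 5 were higher and 1 lower: 3 were higher with no filter, with the lowest 60% left out or without probe sets that can bind related transcripts, 2 were higher with a constant prior variance, and 5 were lower with equal array medians. Without single arrays 4 to 5 were higher and 1 to 3 lower. With the replicate block 2525 probe sets were higher, and 8 listed genes were higher and 4 lower, Cxcl2 among the latter (adjusted p = 0.0370). At an unchanged difference, the limma adjusted p of Ccl3 was 9.8e-47 with the block. The block leaves fewer residual degrees of freedom, so its p-values rest almost wholly on the prior variance. Its extra calls carry little weight. The labels do not say whether equal replicate numbers pair the samples. Deviations of HSC replicate 1 and MPP replicate 1 from their group means correlated at 0.027 over probe sets. With 2 arrays per group this value cannot decide whether they were paired. The cause of these changes was not tested. Dim signals limit what can be said of Ccl6, Ccr1, Ccr7, Ccr9 and Cx3cr1.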

Other observations

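Next to the chemokine cluster lie genes of the WAP domain family, small secreted proteins with a fold of protease inhibitors. In the protein-coding order of GRCm38.p6, Wfdc17, Wfdc18 and Wfdc21 follow Ccl4. They were looked up as neighbours after the values of the chemokines had been seen, and no test of position was made. Wfdc17 read 21.1 and 40.9 units in HSC and 398 and 378 in MPP. The groups did not overlap, and the log2 difference was -3.47 (SE 0.28, limma adjusted p = 5.74e-05), with a call in all 13 alternatives. Wfdc18 read 35.1 and 21.0 units in HSC and 75.2 and 121 in MPP, a log2 difference of -1.61 (SE 0.34, adjusted p = 0.0138), on a probe set of a type that can bind related transcripts. It was called in 9 of 12 alternatives, and without MPP replicate 2 it was -1.29 (adjusted p = 0.143). Wfdc21 was under the floor on every array and was not tested. On the other side of the cluster Taf15, an RNA-binding protein gene, was at 0.068 (adjusted p = 0.880).

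Cxcl2, a neutrophil-attracting chemokine named here after its values were seen, differed between the MPP arrays. It read 23.7 units in MPP replicate 1 and 115 in MPP replicate 2, against 17.4 and 27.1 in HSC. Its log2 difference was -1.11 (SE 0.56, adjusted p = 0.263), and -2.12 without MPP replicate 1 (adjusted p = 0.00726) and -0.093 without MPP replicate 2 (adjusted p = 0.966).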
